A study of Mus musculus with 12 samples.

Results

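A set of 10 genes of the stress and NF-kB feedback response was examined in tongue-innervating sensory neurons of male and female mice with and without a tongue tumor. They were the 3 members of the Gadd45 family (Gadd45a, Gadd45b and Gadd45g), Cdkn1a, 3 inhibitors of NF-kB signaling (Nfkbia, Nfkbiz and Tnfaip3) and 3 genes of NF-kB subunits (Nfkb1, Nfkb2 and Relb). The genes were picked by symbol, with their levels in these libraries already known, and all 10 were found among the 22609 gene symbols of the count tables. Trigeminal ganglion (TG) neurons had been labeled by wheat germ agglutinin (WGA), a tracer carried from the tongue to the cell body, and sorted from dissociated ganglia of Balb/c athymic nude mice. The groups were normal males (MN), tumor-bearing males (MT), normal females (FN) and tumor-bearing females (FT), with 3 samples each. Tumors had been started with 350000 HSC3 cells, a human line of oral squamous cell carcinoma, injected into the tongue. All groups received WGA in the tongue on day 13, and the ganglia were taken on day 15. Each sample pooled 4 TGs, from 2 mice in the normal groups and from the tumor side of 4 mice in the tumor groups. The labels say that normal mice received no cells, whereas the methods of the study speak of normal oral keratinocytes, and the labels give the WGA solution as 0.5%, which differs from the strength in those methods. Athymic mice lack T cells, and 1 cancer line was used.

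NF-kB is a family of transcription factors held in the cytoplasm by inhibitor proteins until a cytokine, injury or other stress leads to the breakdown of the inhibitor. The genes of several inhibitors are themselves NF-kB targets, so that the pathway restrains itself, and Nfkbia and Tnfaip3 are the best known of these feedback genes. GADD45 proteins are small stress-induced proteins that bind the kinase MTK1, encoded by Map3k4, as well as PCNA and cyclin-dependent kinase complexes. Gadd45a and Cdkn1a are classical p53 targets, while Gadd45b is also known as an NF-kB target, and Gadd45a is known to be induced in sensory neurons after nerve injury.

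The 100 bases before the start site of 5 of the genes are shown as examples that hold a kB, TATA or p53 motif. Tnfaip3 and Gadd45a also hold such a motif in those bases and are not shown. For Nfkb2 and Cdkn1a, which have more than 1 window, the most upstream is shown. The sequences are RefSeq promoter windows of GRCm38.p6, each found once in mm9, the build of the count files, and they are written 5′ to 3′ on the strand of the gene. Capitals mark a kB motif in Nfkbia (chr12:56593635-56593734, minus strand) and Nfkb2 (chr19:46379127-46379226, plus strand), a TATA motif in Gadd45b (chr10:80392736-80392835, plus strand) and Gadd45g (chr13:51941944-51942043, plus strand), and both p53 half-sites in Cdkn1a (chr17:29227824-29227923, plus strand).
Nfkbia: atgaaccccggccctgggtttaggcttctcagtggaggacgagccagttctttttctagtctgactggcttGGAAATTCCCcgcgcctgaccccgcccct
Nfkb2: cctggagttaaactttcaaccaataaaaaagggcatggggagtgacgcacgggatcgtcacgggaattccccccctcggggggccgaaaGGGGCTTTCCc
Gadd45b: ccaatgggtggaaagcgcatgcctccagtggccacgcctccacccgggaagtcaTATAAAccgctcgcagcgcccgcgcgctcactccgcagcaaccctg
Gadd45g: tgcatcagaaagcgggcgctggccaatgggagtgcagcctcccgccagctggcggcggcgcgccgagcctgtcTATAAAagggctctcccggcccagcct
Cdkn1a: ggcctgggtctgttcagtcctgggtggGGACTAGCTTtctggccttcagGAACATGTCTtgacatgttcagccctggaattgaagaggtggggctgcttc

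Promoter windows from 250 bases before to 50 after the start were matched for 7 of the 10 genes, with 11 windows in all, and Nfkb1, Relb and Nfkbiz were not among them. The motifs were searched on both strands. The kB motif, GGG and TTTCC with 2 bases of any kind between them, was present in 5 of the 11 windows, which belonged to Nfkbia, Nfkb2 and Tnfaip3, against 1.63% of 32851 windows of all genes. These windows are not independent, since 3 of the 5 belong to Nfkb2, whose downstream windows overlap and share a single match, GGGACTTTCC. It began 29 bases before the start in Nfkbia, 11 before in the most upstream window of Nfkb2 and 12 before in Tnfaip3, where it read GGAAATCCCC. TATAAA was present in 4 windows, of Gadd45b, Gadd45g, Nfkbia and Tnfaip3 (13.6% of all windows). It began 46 bases before the start in Gadd45b, 27 before in Gadd45g and 225 before in Tnfaip3. In Nfkbia it lay after the start, at position 20 on the other strand. The AP-1 motif TGANTCA was present in 2 windows, of Nfkb2 and Tnfaip3 (7.81%), and the CRE motif TGACGTCA in 0 (1.79%). A p53 half-site was found in 2 windows, of Cdkn1a and Gadd45a (8.36% of all windows). No motif overlapped another one in the stretches shown, and a match describes the letters of the window alone.

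Reads on genes numbered 4592891 to 8922011 per library, and 12 of 12 libraries matched the sex on their label. Reads mapped to several places made up 56.0%, 68.4% and 52.6% of all reads in FN replicate 2, FT replicate 2 and FT replicate 3, against 43.0% to 45.5% in the other 9 libraries. Over the tested genes, the highest Spearman rho of these 3 libraries with any of the 9 was 0.850, 0.811 and 0.908, and the lowest among the 9 was 0.971. The results below are therefore also given over 10 libraries, without FN replicate 2 and FT replicate 2, and over 9, without FT replicate 3 as well, where FT is 1 library. All male libraries stay in each set, so MT versus MN compares the same libraries in each. Defining markers of sensory neurons were present in every library, with at least 1943 CPM of Tubb3, 713 CPM of Snap25 and 485 CPM of Pirt. CPM scale the counts of a library to its reads on genes, and RPKM divides them by the exon length in kilobases. In sorted pools, fewer cells of a type and less RNA per cell cannot be told apart, and p values reflect the spread between the pooled samples. In the fit of all 12 libraries that spread was estimated over male and female libraries together, also for MT versus MN. The standard error of the Gadd45b log2 fold change in MT versus MN was 0.50 in that fit and 0.19 with the male libraries alone.

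Per length of exon, the inhibitor gene Nfkbia, the cell cycle inhibitor Cdkn1a and Gadd45g were the most abundant of the 10. Over the 9 libraries their means were 98.2, 94.3 and 82.8 RPKM, at percentiles 96.9, 96.7 and 96.2 of all genes. Gadd45a followed with 29.0 RPKM and Gadd45b with 19.2 RPKM. All other members lay between 1.26 RPKM (Nfkb2) and 4.34 RPKM (Nfkbiz), and the NF-kB subunit genes Nfkb1 and Relb had 1.68 and 2.42 RPKM. Nfkbia thus stood 31.5 to 75.4 times above Nfkb1 per exon length in those 9 libraries, and 371, 48.6 and 109 times above it in FN replicate 2, FT replicate 2 and FT replicate 3.

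Gadd45g gave the largest share of Gadd45 family RPKM in each of the 12 libraries. It made up 54.3%, 66.7% and 54.0% of the sum in MN, 61.6%, 57.5% and 66.6% in MT, 71.4%, 73.3% and 67.5% in FN and 64.2%, 69.8% and 65.6% in FT. FN shares of Gadd45g were above all MN shares, and the MT and FT shares overlapped with those of MN or FN. Summed over the family, the level was 84.5 to 115 RPKM in MN, 125 to 146 RPKM in MT, 129, 462 and 153 RPKM in FN, and 172, 132 and 263 RPKM in FT. Gadd45b made up 11.0% to 18.1% of the sum over the 12 libraries.

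**Figure D1:**
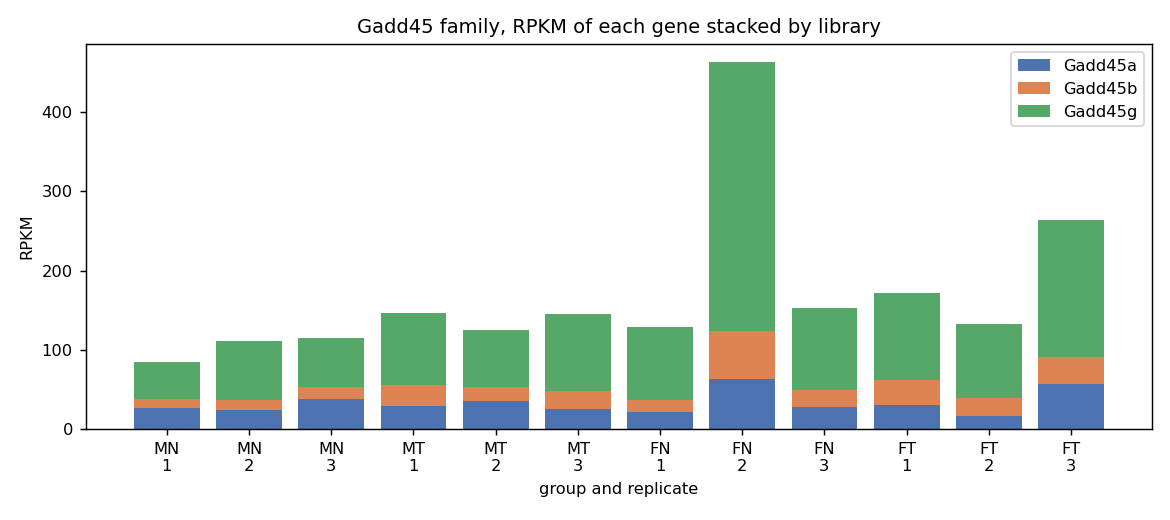
Stacked bars give the RPKM (vertical axis, from 0) of Gadd45a, Gadd45b and Gadd45g in each of the 12 libraries (horizontal axis, group and replicate). The Gadd45g segment is the largest in every bar, and the bar of FN replicate 2, at 462 RPKM, is the highest.

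Gadd45b (chromosome 10 of mm9, 80392836 to 80394949), which encodes the NF-kB-responsive member of the family, was measured at 14.8, 15.4 and 19.0 CPM in MN and at 33.5, 22.1 and 28.6 CPM in MT. In FN it was at 19.4, 76.1 and 27.9 CPM, and in FT at 38.5, 29.0 and 43.4 CPM. All MT, FN and FT libraries were thus above all MN libraries, and FT overlapped with both MT and FN. Means were 16.4 ± 2.32 CPM in MN, 28.1 ± 5.71 CPM in MT, 37.0 ± 7.33 CPM in FT and 41.1 ± 30.6 CPM in FN (SD, n = 3 each), and in this order no neighbors beyond MN and MT were apart in every library. The log2 fold change was 0.80 ± 0.50 (standard error, as for the fold changes that follow) in MT versus MN, and it was 0.79 ± 0.23 over 10 libraries. In FT versus FN it was -0.21 ± 0.49 over 12 libraries, 0.90 ± 0.28 over 10 and 0.71 ± 0.28 over 9, so that its sign rested on FN replicate 2.

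Gadd45g lies on the plus strand of chromosome 13 from 51942047 to 51943837. Its levels were 53.9, 86.6 and 73.0 CPM in MN and 106, 84.3 and 113 CPM in MT. In FN they were 108, 397 and 121 CPM, and in FT 129, 108 and 203 CPM. FN replicate 2 held the highest value of the 12 libraries, and MT replicate 2 lay within the MN range. The group order was MN (mean 71.2 ± 16.5 CPM), MT (101 ± 15.0 CPM), FT (147 ± 49.6 CPM) and FN (209 ± 163 CPM; SD, n = 3 each), with overlap between each pair of neighbors. In FN versus MN all libraries were apart and the log2 fold change was 1.78 ± 0.53, which fell to 0.63 ± 0.28 over 10 libraries. For FT versus FN it was -0.58 ± 0.52 over 12 libraries, 0.65 ± 0.30 over 10 and 0.18 ± 0.24 over 9.

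Gadd45a (chromosome 6, 66985090 to 66987451, minus strand), the p53-responsive member, was the flattest of the family in males. It had 47.5, 43.6 and 67.1 CPM in MN and 52.4, 62.8 and 45.6 CPM in MT, which overlap throughout, with a log2 fold change of 0.05 ± 0.50. FN had 38.0, 112 and 48.9 CPM and FT 54.7, 30.0 and 99.7 CPM. The 4 group means, from 52.8 ± 12.6 CPM in MN to 66.3 ± 39.9 CPM in FN (SD, n = 3 each), rested on overlapping libraries. FT versus FN was -0.17 ± 0.50 over 12 libraries, 0.95 ± 0.34 over 10 and 0.34 ± 0.27 over 9, the middle value resting on FT replicate 3.

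Cdkn1a (chromosome 17, 29227924 to 29237667), encoding the cyclin-dependent kinase inhibitor p21, was at 156, 183 and 212 CPM in MN and at 227, 245 and 222 CPM in MT. Every MT library was above every MN library, by a small margin, and the log2 fold change was 0.35 ± 0.47 over 12 libraries and 0.35 ± 0.20 over 10. It was at 188, 569 and 235 CPM in FN and at 219, 346 and 276 CPM in FT, where the groups overlapped. The FT versus FN log2 fold change was -0.22 ± 0.47 over 12 libraries, 0.34 ± 0.24 over 10 and 0.06 ± 0.19 over 9. By mean the order was MN (184 ± 27.6 CPM), MT (231 ± 12.2 CPM), FT (281 ± 63.2 CPM) and FN (331 ± 208 CPM; SD, n = 3 each), and only MN and MT did not overlap as neighbors.

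**Figure D2:**
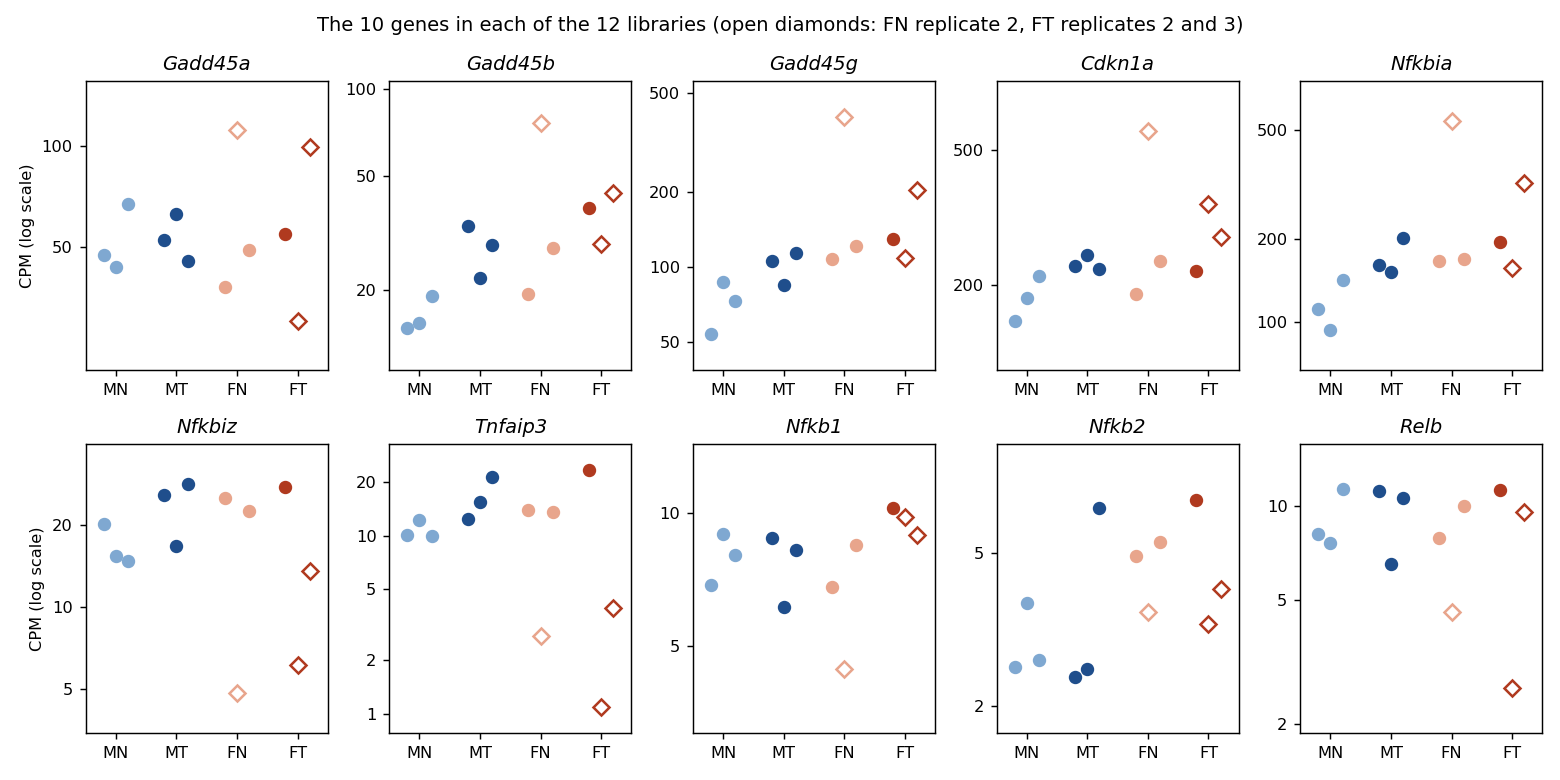
Each point is the CPM (log axis, own scale per gene) of 1 library in the groups MN, MT, FN and FT, with open diamonds for FN replicate 2, FT replicate 2 and FT replicate 3. In FN replicate 2 the Gadd45 genes, Cdkn1a and Nfkbia stand at their highest level and Nfkbiz, at 4.83 CPM, at its lowest, while Tnfaip3 is lowest in FT replicate 2 at 1.09 CPM.

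Nfkbia (chromosome 12, 56590398 to 56593634, minus strand), whose product I-kB alpha binds and retains NF-kB dimers, was at 111, 93.0 and 142 CPM in MN and at 161, 152 and 203 CPM in MT. The 3 MT libraries lay above the 3 MN libraries, with a log2 fold change of 0.59 ± 0.51 over 12 libraries and 0.59 ± 0.24 over 10. FN held 166, 541 and 170.1 CPM and FT 195, 157 and 321 CPM. FN was above MN in each library, with 1.57 ± 0.51 over 12 libraries and 0.49 ± 0.27 over 10, while FT overlapped with FN and with MT. The FT versus FN value was -0.45 ± 0.50 over 12 libraries, 0.74 ± 0.30 over 10 and 0.22 ± 0.21 over 9. Group means ran from 115 ± 24.7 CPM in MN through 172 ± 27.1 CPM in MT and 224 ± 86.0 CPM in FT to 293 ± 215 CPM in FN (SD, n = 3 each).

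Tnfaip3 (chromosome 10, 18720716 to 18735463, minus strand) encodes A20, a ubiquitin-editing enzyme that shuts off signaling to NF-kB. It was measured at 10.1, 12.3 and 9.98 CPM in MN and at 12.5, 15.4 and 21.4 CPM in MT, apart in each library. The log2 fold change was 0.61 ± 0.71 over 12 libraries, 0.61 ± 0.44 over 10 and 0.61 ± 0.20 over 9, with the same male libraries in each. In the females it was at 14.0, 2.74 and 13.6 CPM in FN and at 23.6, 1.09 and 3.90 CPM in FT. FN replicate 2 and FT replicates 2 and 3 gave the lowest values of the 12 libraries, the last of these from 28 counts and FT replicate 2 from 5. The FT versus FN log2 fold change was accordingly -0.05 ± 0.72 over 12 libraries, 0.05 ± 0.53 over 10 and 0.78 ± 0.29 over 9, the last with FT replicate 1 as the only FT library.

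Nfkbiz (chromosome 16, 55811488 to 55839012, minus strand) encodes the nuclear I-kB zeta, which modulates NF-kB at promoters. Its levels were 20.1, 15.4 and 14.7 CPM in MN, 25.7, 16.7 and 28.3 CPM in MT, 25.1, 4.83 and 22.5 CPM in FN and 27.6, 6.10 and 13.5 CPM in FT. MT and MN overlapped through MT replicate 2, and the log2 fold change was 0.51 ± 0.51 over 12 libraries, 0.51 ± 0.27 over 10 and 0.51 ± 0.20 over 9. In FT versus FN it was -0.07 ± 0.51, -0.14 ± 0.33 and 0.22 ± 0.29 over 12, 10 and 9 libraries.

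The genes of the NF-kB subunits were low in all groups. Nfkb1 (chromosome 3, 135247619 to 135354511, minus strand), which encodes p105 and p50, was at 6.89, 8.97 and 8.03 CPM in MN, 8.80, 6.11 and 8.27 CPM in MT, 6.79, 4.44 and 8.49 CPM in FN and 10.3, 9.80 and 8.92 CPM in FT. All FT libraries were above all FN libraries and above all MT libraries, and FT versus FN gave a log2 fold change of 0.67 ± 0.36 over 12 libraries and 0.42 ± 0.30 over 10. In MT versus MN the Nfkb1 value was -0.03 ± 0.36, with overlapping libraries.

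Nfkb2 (chromosome 19, 46379227 to 46386580), the gene of p100 and p52 in the noncanonical pathway, had 15 to 53 counts per library. It was at 2.53, 3.70 and 2.64 CPM in MN, 2.39, 2.50 and 6.54 CPM in MT, 4.90, 3.52 and 5.34 CPM in FN and 6.86, 3.27 and 4.04 CPM in FT. MT replicate 3 alone stood above MN, and the MT versus MN log2 fold change was 0.36 ± 0.48. Relb (chromosome 7, 20191566 to 20214787, minus strand), the partner of p52, was at 8.15, 7.62 and 11.4 CPM in MN, 11.2, 6.53 and 10.6 CPM in MT, 7.92, 4.57 and 10.0 CPM in FN and 11.2, 2.61 and 9.62 CPM in FT. The groups overlapped for Relb, with log2 fold changes of 0.08 ± 0.45 in MT versus MN and 0.11 ± 0.45 in FT versus FN.

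To find whether any of the 10 genes differed with the tumor or with sex, the whole table was fitted with edgeR's quasi-likelihood test, which tested 13835 genes, the 10 members included, or 13360 without X and Y for FN versus MN and FT versus MT. With an adjusted p under 0.05, 0 of 10 members passed in MT versus MN, FT versus FN, FN versus MN, FT versus MT and the sex difference in the tumor effect, and 0% of all genes did. In simulated MT versus MN data this test recovered 0 of 55 genes changed 1.5 times and 18 of 72 changed 4 times. The simulated spread was estimated over all 12 libraries and is not that of the male libraries alone. At an unadjusted p under 0.05, MT versus MN had 0 members (0.426% of genes), FT versus FN 0 (3.82%), FN versus MN 4 (5.57%), FT versus MT 0 (12.1%) and the sex difference 0 (1.47%). The 4 were Gadd45b, Gadd45g, Cdkn1a and Nfkbia, all higher in FN (5.21% of genes were). Over 10 libraries, the members at an unadjusted p under 0.05 were Gadd45b and Nfkbia in MT versus MN (2.28% of genes), Gadd45a, Gadd45b and Nfkbia in FT versus FN (14.7%), Gadd45g in FN versus MN (6.08%), and Gadd45b, Gadd45g and Nfkbia in FT versus MT (22.5%), and 0 in the sex difference (5.87%). All of these were higher in the group named first, and 0 passed with an adjusted p. DESeq2 gave an adjusted p under 0.05 for 0 members in the 5 comparisons, where it passed 0.0145%, 0%, 0.15%, 1.86% and 0% of genes in the order above. Limma-voom with sample quality weights passed 1 member, Gadd45g in FN versus MN (5.99% of genes), and 0 members in MT versus MN (0.34%) and the other 3 comparisons (0%). Under the criteria of the study, which ask for an unadjusted p under 0.05, a change of more than 1.5 times and more than 5 RPKM in a group, Gadd45b, Gadd45g, Cdkn1a and Nfkbia passed in FN versus MN (3.69% of genes), and 0 members in MT versus MN (0.152%), FT versus FN (2.17%) and FT versus MT (8.14%). Over 10 libraries the same criteria passed Gadd45g in FN versus MN (2.27%), Gadd45b and Nfkbia in MT versus MN (0.645%), Gadd45a, Gadd45b and Nfkbia in FT versus FN (9.73%), and Gadd45g and Nfkbia in FT versus MT (13.9%). The criteria were applied here to the edgeR fit, while the study used DESeq. The supplement of the study lists Gadd45b as raised with the tumor in both sexes, and Gadd45a in females. Its RPKM of Gadd45b in FN and FT are closer to the means over 10 libraries (18.7 and 32.4) than to those over 12 (32.5 and 29.2). The sets of libraries thus differ here as well as the tool, and the part of each was not tested. Without FT replicate 1, edgeR passed 1 member in FT versus MT, Tnfaip3 (5.55% of genes), with FT replicates 2 and 3 as the only FT libraries.

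By non-overlap of libraries, 4 of 10 members were higher in MT than in MN, namely Gadd45b, Cdkn1a, Nfkbia and Tnfaip3, where 5.8% of all genes were. A fit of the 6 male libraries alone had 0 members with an adjusted p under 0.05 (0.045% of genes) and 6 with an unadjusted p under 0.05 and a higher level in MT (3.7% of genes), which were those 4 with Gadd45g and Nfkbiz. Over the members, 9 of 10 log2 fold changes in MT versus MN were above 0, with a median of 0.44 beside 0.01 for all genes tested. Because the 10 genes were chosen with these values known, the shares describe the choice and are not evidence of a change.

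In FT versus FN 3 of 10 members had a log2 fold change above 0 over the 12 libraries, with a median of -0.12 beside -0.06 for all genes. Over 10 libraries 9 of 10 were above 0, with a median of 0.38 beside -0.06, and over 9 libraries 10 of 10, with a median of 0.34 beside -0.02. Nfkb1 alone was above FN in every FT library of the 12 (1.22% of genes), and over 10 libraries Gadd45a, Gadd45b, Gadd45g, Nfkbia and Nfkb1 were (16.5%). The sex difference in the tumor effect had 2 of 10 values above 0 over the 12 libraries, 6 of 10 over 10 and 5 of 10 over 9. Its log2 values for Gadd45b, Gadd45g and Nfkbia were -1.01 ± 0.70, -1.10 ± 0.73 and -1.04 ± 0.71 over 12 libraries and 0.10 ± 0.36, 0.14 ± 0.39 and 0.15 ± 0.38 over 10. Over 9 libraries they were -0.08 ± 0.35, -0.34 ± 0.29 and -0.37 ± 0.25. A different response of males and females was therefore not detected, and the sign of the difference was not the same in these sets of libraries.

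**Figure D3:**
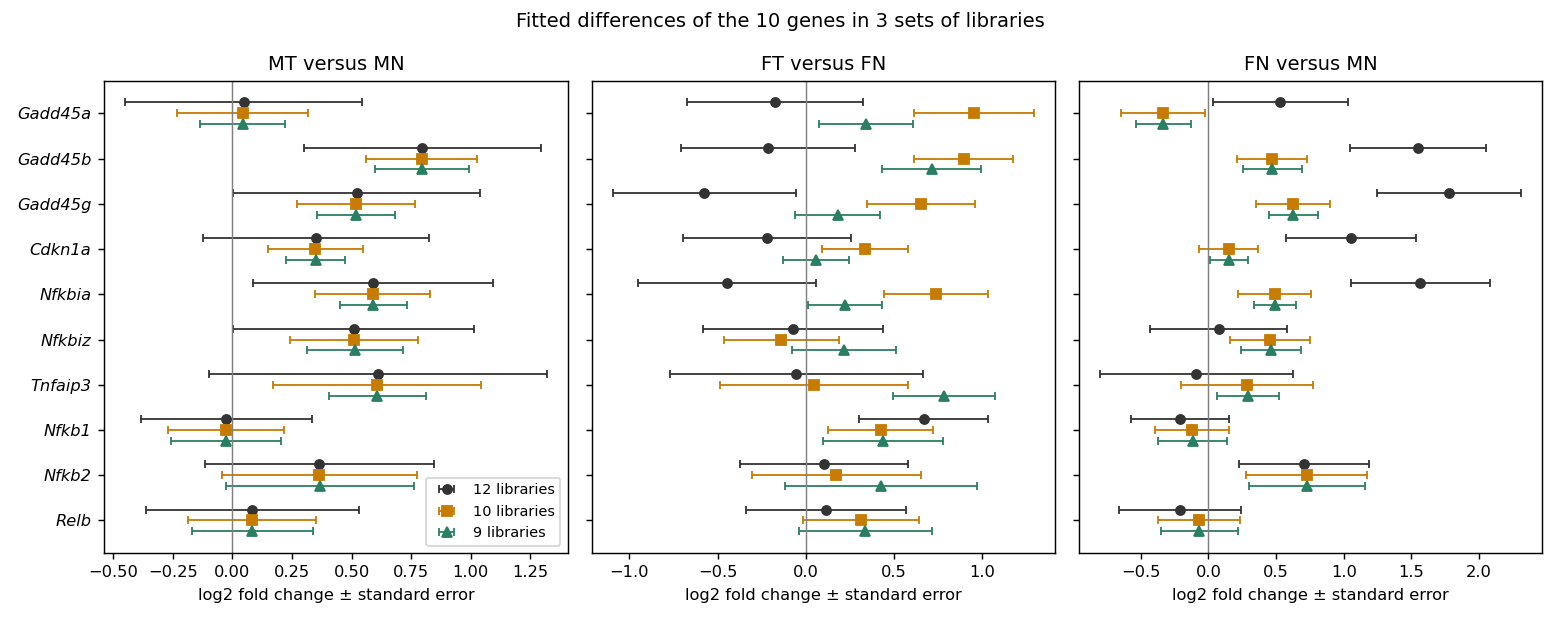
Points give the log2 fold change of each gene with its standard error (horizontal axis) in MT versus MN, FT versus FN and FN versus MN, fitted on 12, 10 and 9 libraries. The 3 sets hold the same male libraries, so the MT versus MN values coincide by design, as 0.80 and 0.79 for Gadd45b. Those of FT versus FN change sign between 12 and 10 libraries for the Gadd45 genes, Cdkn1a and Nfkbia, as -0.45 and 0.74 for Nfkbia.

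Every FN library was above every MN library for 3 members (Gadd45b, Gadd45g and Nfkbia, 9.66% of genes), and over 10 libraries for 6 (23.2%), with Nfkbiz, Tnfaip3 and Nfkb2 added. For Gadd45b the log2 fold change was 1.55 ± 0.50 with FN replicate 2 and 0.47 ± 0.26 over 10 libraries, and for Cdkn1a 1.06 ± 0.48 and 0.15 ± 0.22. Gadd45a changed sign, from 0.53 ± 0.50 to -0.34 ± 0.31. In FT versus MT, Nfkb1 alone was higher in every library (8.03% of genes), and its log2 fold change was 0.48 ± 0.36. FN versus MN shares the MN libraries with MT versus MN and the FN libraries with FT versus FN, so these values are not independent of each other.

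FN replicate 2 differed from the mean of the 9 libraries in opposite directions for short and long genes, by the median of each class of exon length. It held 5.44 times the level of Gadd45g, 4.62 times that of Nfkbia, 4.20 times that of Gadd45b, 3.53 times that of Cdkn1a and 2.85 times that of Gadd45a. Nfkbiz and Tnfaip3 instead stood at 0.303 and 0.264 times the mean. The Gadd45 genes and Nfkbia have 1173 to 1764 exon bases and belong to the shortest of 5 equal classes of exon length, in which the median log2 difference of FN replicate 2 was 1.33 (quartiles 0.63 and 1.76). Nfkbiz (5018 exon bases) and Tnfaip3 (7226) belong to the fourth and the longest class, with medians of -0.64 and -0.46. The class of Cdkn1a had a median of 0.03, and Nfkb2 stood at 0.23 in a class with a median of -0.66.

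Within its own length class, Gadd45g in FN replicate 2 lay at percentile 97.0, Cdkn1a at 95.8, Nfkbia at 94.8, Gadd45b at 91.4 and Gadd45a at 60.0. Tnfaip3 was at percentile 9.85 of the longest class there, and at 1.36 and 9.05 in FT replicates 2 and 3. In FT replicate 3 the shortest class had a median log2 difference of 0.92, and Gadd45g, Nfkbia, Gadd45a and Gadd45b had 1.22, 1.21, 1.10 and 1.02. In FT replicate 2 that median was 0.30, and Gadd45b, Gadd45g, Nfkbia and Gadd45a had 0.76, 0.65, 0.50 and -0.30. Cdkn1a stood at 1.18 there, in a class with a median of -0.49. The part of transcript length in the differences between groups was not tested.

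**Figure D4:**
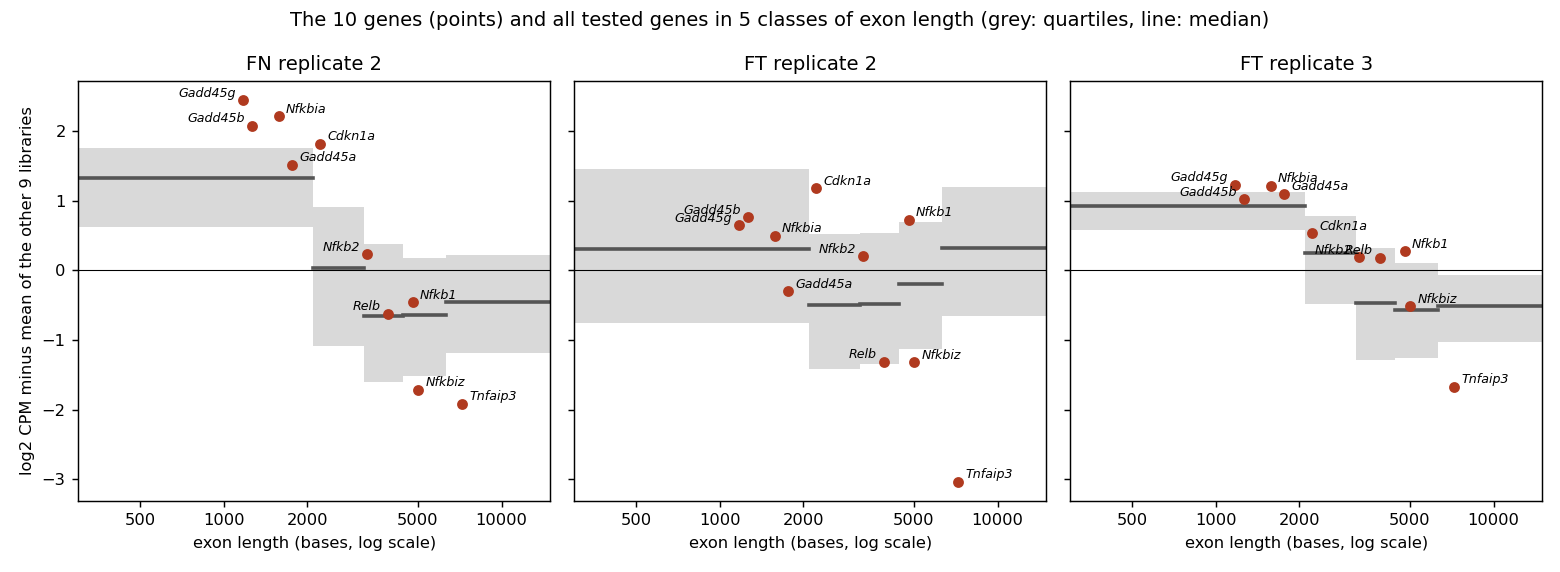
Points are the 10 genes, placed by exon length (log axis, bases) and by log2 CPM minus the mean of the 9 other libraries, in FN replicate 2, FT replicate 2 and FT replicate 3, with the median (line) and quartiles (grey) of all tested genes in each of 5 classes of exon length. In FN replicate 2 the short Gadd45 genes and Nfkbia lie above 0, as does the median of their class at 1.33, and the long Nfkbiz and Tnfaip3 lie below 0.

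Other genes of the NF-kB pathway, its kinases, adaptors, subunits and inhibitors, had medians near those of all genes. Of 24 genes 23 were tested, edgeR gave an adjusted p under 0.05 for 0 of them in MT versus MN and in FT versus FN, and the medians were 0.12 and 0.01 (all genes 0.01 and -0.06). At an unadjusted p under 0.05 there were 0 in MT versus MN and 1 in FT versus FN, Tab2, an adaptor of the kinase TAK1, with a log2 fold change of 1.50 ± 0.57 over 12 libraries that was 0.22 over 10. In MT versus MN the highest values were those of Tnip2, a binding partner of A20 (0.43 ± 0.48), and of the kinase gene Irak1 (0.34 ± 0.43), and the lowest those of Bcl3, a nuclear I-kB protein (-0.37 ± 0.55), and of Traf3 (-0.33 ± 0.35). In FT versus FN, Tnip2 had 0.92 ± 0.48, and the kinase genes Chuk and Tbk1 were lowest with -0.48 ± 0.55 and -0.59 ± 0.61. These 3 values were 0.21, -0.61 and -0.69 over 10 libraries and 0.21, 0.03 and -0.04 over 9.

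Genes that respond to NF-kB, a list chosen with earlier results of these data known, had higher fitted values in MT than in MN for 19 of 22 tested. Of all genes 51.2% did, and the list median was 0.52. In FN versus MN 18 of 22 were above 0 (54.3% of all genes), with a median of 0.51, and 4 had an unadjusted p under 0.05 (5.57% of genes). In FT versus MT 15 of 22 were above 0 (54.1% of all genes), with a median of 0.34. In MT versus MN, 0 of the 22 genes had an adjusted or an unadjusted edgeR p under 0.05. In the fit of the male libraries alone 6 of 21 had an unadjusted p under 0.05, all higher in MT (3.7% of all genes were). They were Cxcl10, Birc3, Ier3, Csf1, Bcl2l1 and Tnfsf9, named after their values were seen. The chemokine gene Cxcl10 stood at 4.62 ± 2.80 CPM in MN against 11.1 ± 4.79 CPM in MT (SD, n = 3 each), which gave 1.29 ± 0.82 on the log2 scale over 12 libraries, and Cxcl2 had 1.13 ± 0.81. At the other end, the mitochondrial superoxide dismutase gene Sod2 had -0.08 ± 0.37 and Relt -0.33 ± 0.36. In FT versus FN the list had a median of 0.14 over 12 libraries and 0.69 over 10, with 0 of 22 passing and an unadjusted p under 0.05 for Cxcl2 and Tnfaip2 over the 12. Cxcl2 was at 21.0 ± 14.4 CPM in FT and 5.07 ± 3.10 CPM in FN (SD, n = 3 each), with 2.19 ± 0.77 over 12 libraries and 1.65 over 10. Ptgs2, the gene of cyclooxygenase 2, had 1.22 ± 1.41, Cxcl10 -0.81 ± 0.82 and Birc2, an inhibitor of apoptosis, -1.04 ± 0.60. Over 10 libraries they had 1.23, 1.41 and -1.22, so that Cxcl10 changed sign, and over 9 it was at 1.23.

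Targets of p53 other than Gadd45a and Cdkn1a were divided in direction in males. Of 23 tested, 12 had a value above 0 in MT versus MN (51.2% of all genes did), with a median of 0.01. In FT versus FN 5 did (44.4% of all genes), with a median of -0.25, and edgeR passed 0 of them in both. An unadjusted p under 0.05 was found for 0 and for 1, Pmaip1, lower in FT. The death receptor gene Fas stood at 8.18 ± 2.26 CPM in MN against 15.5 ± 5.35 CPM in MT (SD, n = 3 each), with a log2 fold change of 0.93 ± 0.72, and -0.98 ± 0.72 in FT versus FN, which was -0.04 over 10 libraries and -0.38 over 9. Sesn1 (0.52 ± 0.60), Zmat3 (-0.22 ± 0.46) and Rrm2b (-0.33 ± 0.37) were the others at the ends in males, and Zmat3 (0.79 ± 0.47), Ei24 (0.73 ± 0.38) and Ccng1 (-0.89 ± 0.48) in females, where they had -0.27, 0.05 and -1.13 over 10 libraries.

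Partners of GADD45 proteins and the stress kinases below them were tested for 12 of 15, with 0 at an adjusted or unadjusted edgeR p under 0.05 and medians of -0.08 in MT versus MN and -0.02 in FT versus FN. Map3k4, whose product GADD45 proteins bind, stood at 30.9 ± 5.22 CPM in MN against 23.3 ± 8.48 CPM in MT (SD, n = 3 each), or -0.40 ± 0.58 on the log2 scale. Its FT versus FN value was 1.20 ± 0.58 over 12 libraries and -0.22 over 10. Pcna, the replication clamp that GADD45 binds, had 0.27 ± 0.63 in MT versus MN and -0.66 ± 0.63 in FT versus FN, and Ercc5 (0.21 ± 0.41), Mapk10 (-0.14 ± 0.45), Map2k7 (0.82 ± 0.52 in FT versus FN) and Map2k4 (-0.46 ± 0.33 in FT versus FN) were the others at the ends. Over 10 libraries the FT versus FN values of Pcna, Map2k7 and Map2k4 were 0.44, -0.45 and -0.12, so that Pcna and Map2k7 changed sign. DESeq2 and limma-voom likewise gave an adjusted p under 0.05 for 0 genes of these 4 lists in MT versus MN and in FT versus FN.

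Levels of other gene groups stand beside those of the Gadd45 and NF-kB inhibitor genes. In MT versus MN, 51.2% of all genes had a value above 0. The immediate early genes, which also rise when tissue is dissociated, had 17 of 18 values above 0 in MT versus MN with a median of 0.56. Their summed level was 1538 to 1934 CPM in MN, 2153 to 2751 CPM in MT, 2664 to 2938 CPM in FN and 1330 to 3419 CPM in FT. Axon injury genes had 12 of 13 values above 0 with a median of 1.09, and summed to 601 to 637 CPM in MN, 1022 to 1134 CPM in MT, 684 to 2580.5 CPM in FN and 930.2 to 2241 CPM in FT. The injury transcription factor gene Atf3 was at 82.7, 158 and 124 CPM in MN and at 184, 171 and 186 CPM in MT. Macrophage markers, of which 17 of 18 were in the files, summed to 39.5 to 59.9 CPM in MN, 36.3 to 364 CPM in MT, 227 to 507 CPM in FN and 267 to 631 CPM in FT, so that MT replicates 1 and 2, at 36.3 and 44.3 CPM, were at the level of MN. The defining macrophage gene Csf1r was at 1.01 and 2.22 CPM in those 2 libraries and at 28.0 CPM in MT replicate 3. Endothelial markers summed to 609 to 1453 CPM in MN, 731 to 1865 CPM in MT, 1664 to 1908 CPM in FN and 366 to 1567 CPM in FT. Satellite glia markers were at 4549 to 5394 CPM in MN, 3880 to 5361 CPM in MT, 8837 to 17805 CPM in FN and 7248 to 18984 CPM in FT. The part of these genes and cell types in the levels of the 10 members was not tested.

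Among all tested genes, those whose pattern over the 12 libraries was nearest to Gadd45b were Myl4, Nfkbia and Gadd45g, with a root mean square difference of 0.24, 0.24 and 0.27 in centered log2 CPM, where the median gene was at 0.94. For Gadd45g the nearest were Nfkbia (0.24), Prkcdbp (0.25) and Fth1 (0.26), and for Nfkbia they were Prkcdbp (0.16), Fbxo6 (0.17) and Ccs (0.21). Gadd45a was nearest to Thoc3 (0.11), AY074887 (0.14) and Sept4 (0.16). All of these genes were highest in FN replicate 2, like the members they were matched to. Over the 9 libraries Gadd45b was nearest to Rnd1 (0.15), Gadd45g to St3gal1 (0.13), Nfkbia to Mll5 (0.12) and Gadd45a to Pcdha3 (0.09). Thoc3 was among the 3 nearest to Gadd45a there as well (0.12), and none of the other neighbors given for the 12 libraries was among the 3 nearest to its member over the 9.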

How the data were processed

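RNA of sorted TG neurons was sequenced from 12 samples, which were grouped by their labels. The deposited values are whole read counts per gene symbol without normalization, which the authors made from SMART-seq2 libraries. The submitters' processing notes name CASAVA 1.8.2, TopHat2, SAMtools, HTSeq and mm9. Gene annotation and strand setting are not given in the sources used here. Rows without a gene, 76.3% to 88.8% of reads, were left out of totals, CPM and tests. RPKM used GENCODE M1 exon lengths, which matched 95.7% of symbols.

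The counts of all 12 libraries entered a fit by edgeR 4.0.16 (R 4.3.3, TMM, filterByExpr with minimum count 10 and minimum total count 15, quasi-likelihood test, Benjamini-Hochberg adjustment over all genes). The comparisons between the sexes used genes outside X and Y alone. The alternatives were DESeq2 1.42.0, limma-voom (limma 3.58.1, sample quality weights), size factors, no filter, only the groups compared, 10 and 9 libraries, a replicate block, leaving out each library, and the criteria of the study (unadjusted p under 0.05, fold change over 1.5, mean RPKM over 5). The main fit did not treat samples with the same replicate number as pairs. The fitting code was tested on simulated counts with changes put into MT. Their spread was estimated over all 12 libraries, so the recovery does not describe a fit of the male libraries alone. In MT versus MN, edgeR recovered 0 of 55 genes changed 1.5 times, 1 of 73 changed 2 times and 18 of 72 changed 4 times, with 1 false call. DESeq2 recovered 0, 2 and 43 of these, with 22 false calls, and limma-voom 0, 1 and 15, with 0 false calls. A count of 0 members called is therefore not evidence of no change. Other steps used Python 3.11.15 with numpy 2.4.6, pandas 2.3.3 and matplotlib 3.10.9.

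The 10 genes and the gene lists were chosen with earlier results of these data known. Named are the 10 genes, the 2 highest and 2 lowest genes of each of 4 pathway lists in MT versus MN and FT versus FN (mean of 5 CPM or more), the 3 nearest patterns of 4 of the genes, and defining markers. Atf3, Csf1r, Pmaip1, Tnfaip2, Plk2 and the 6 NF-kB responsive genes of the male fit were named after their values were seen. Values over 9 libraries name only the nearest gene. Neutrophil and Schwann cell lists were also summed. Neutrophil markers were at 12.0 to 63.8 CPM in MN and 41.5 to 121 CPM in MT, and Schwann cell markers at 2024 to 2084 CPM and 1546 to 2392 CPM.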

Additional observations from a re-analysis of the deposited data

How the results depend on the processing

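Of 990 alternative values of the members' log2 fold changes, 930 moved by less than 1 SD and 95 had the other sign, of which 10 were in MT versus MN and 37 in FT versus FN. The other sign came up in 14 values without FN replicate 2, in 13 over 10 libraries, in 17 over 9 and in 16 with limma-voom.

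The number of genes with an adjusted p under 0.05 was 0 in each comparison over 12 libraries. In MT versus MN it was 2 with DESeq2, 47 with limma-voom, 6 with only the groups compared and 3 over 9 libraries. In FN versus MN it was 20, 800 and 54 with DESeq2, limma-voom and 9 libraries, and among these 1 member, Gadd45g, and 7 pathway list genes passed with limma-voom and 1 pathway list gene (Plk2) over 9 libraries. In FT versus MT it was 249 with DESeq2, with 1 pathway list gene, and 1 over 9 libraries. Under the criteria of the study, 21 genes met them in MT versus MN (0.152% of genes) and 300 in FT versus FN (2.17%, with 2 pathway list genes). In FN versus MN 493 did (3.69%, with 4 members and 4 pathway list genes), and in FT versus MT 1088 (8.14%, with 6 pathway list genes). Over 12 libraries the 4 pathway lists had 23, 22, 23 and 12 tested genes in FT versus FN. In FN versus MN and in FT versus MT they had 21, 22, 23 and 12. All genes passed at 5.99% with limma-voom in FN versus MN and at 1.86% with DESeq2 in FT versus MT. Whether the counts of pathway list genes exceed these shares was not tested. Leaving out single libraries gave 0 to 1 genes in FN versus MN, and 0 to 755 genes, 0 to 1 members and 0 to 5 pathway list genes in FT versus MT, the highest without FT replicate 1, where Tnfaip3 was the member (5.55% of genes). The cause was not tested.

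The main fit did not treat the replicate numbers that the groups share as pairs. Deviations of samples with the same number correlated between -0.352 and 0.571. Samples with different numbers were not compared in this way, so pairing was not tested. A replicate block left 0 genes and 0 members called in each comparison and changed 2 signs. Nfkb2 rested on 15 to 53 counts per library and Tnfaip3 on 5 in FT replicate 2, which limits their precision.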
